A study of Mus musculus with 6 samples.

Results

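Transcripts of 10 genes of the Hedgehog pathway were followed in sorted cells of the mouse amygdala, out of 32285 genes counted. The genes were Ptch1, Boc, Cdon, Hhip, Smo, Sufu, Gli1, Gli2, Gli3 and Glis3, named as a pathway list with earlier results of these data in view. They were read in 2 cell classes defined by unique molecular identifiers (UMIs, each standing for 1 captured transcript). Astrocytes carried at least 20 UMIs of the glutamate transporters Slc1a2 and Slc1a3 together and at most 3 of the mural cell genes Vtn and Rgs5. Pericytes, the contractile cells that wrap capillaries, carried at least 10 UMIs of Vtn and Rgs5 and at most 5 of Slc1a2 and Slc1a3. Astrocytes were further split by their UMIs of Agt, the gene for angiotensinogen, into those with at least 3 and those with 0.

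By the labels, all samples came from wild-type male C57BL/6N mice, and the study's methods give young adult mice of the C57BL/6NCrSlc substrain and of both sexes over its experiments. NoFC mice were placed in the conditioning chamber without a shock and FC mice received foot shocks there. NoFR mice were conditioned and stayed in the home cage on the next day, whereas FR mice were returned to the chamber to recall the fear memory. Amygdala tissue was taken 90 min after the behaviour began, dissociated with actinomycin D, triptolide and anisomycin to block new transcription and translation, and sorted with the ACSA2 antibody, which binds the astrocyte protein ATP1B2. Cells of different mice were labelled with hashtag antibodies and pooled into 3 libraries, each of which was measured as a gene and a hashtag library.

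Hedgehog ligands are secreted proteins that bind the receptor Ptch1 and its co-receptors Boc and Cdon. Free Ptch1 keeps the membrane protein Smo silent, and ligand binding releases Smo, which acts at the primary cilium to turn the zinc finger factors Gli2 and Gli3 from repressors into activators, a step held back by Sufu. Gli1, Ptch1 and the ligand-trapping protein Hhip are classical transcriptional targets of the pathway, so that the pathway's receptor and decoy limit its own signal. Glis3 is a related zinc finger factor outside the core pathway. In the adult forebrain, neurons are a known source of Sonic hedgehog and astrocytes are a known responding cell.

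The libraries held 5287, 3631 and 4628 barcodes, 13546 in all, and 107419453 UMIs. The gates took 8757 barcodes as astrocytes (64.6%) and 2260 as pericytes (16.7%), and 2529 met neither gate. The labels name the cells astrocytes only. Summed CPM (UMIs of the gene for every 1000000 UMIs of the same cells) of 8 astrocyte markers was 19188 to 19757 in the astrocyte gate and 881 to 977 in the pericyte gate, where Gfap was at 0 UMIs. Summed CPM of 8 pericyte markers was 117 to 134 and 24996 to 25214, respectively. In the pericyte gate 5 smooth muscle markers summed to 1529 to 1620 CPM, 5 fibroblast markers to 225 to 262 and 5 endothelial markers to 134 to 144. In the astrocyte gate these sums were 3.79 to 4.71, 18.8 to 29.8 and 1.29 to 5.62 CPM. The part of such cells in the pericyte values was not tested. Atp1b2, which encodes the sorted antigen, reached in pericytes 79.0 to 85.1% of its astrocyte level. Libraries 1 and 2 shared 8 barcodes, libraries 1 and 3 shared 7, and libraries 2 and 3 shared 3. Astrocytes held a median of 9667 to 10281 UMIs per cell and pericytes 4833 to 5206.

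Astrocytes carried transcripts of the whole chain from receptor to transcription factor. Pericytes carried those of Sufu at much the same share of their RNA and those of Smo at 65.8 to 73.3% of the astrocyte level. They carried far less of the others, apart from Cdon, which was nearly unseen in both. Since the cell classes are part of how the genes were chosen, the values are a description without a test. The receptor Ptch1 (ENSMUSG00000021466, chr13:63508328-63573598, minus strand) stood at 345, 386 and 386 CPM in the astrocytes of libraries 1, 2 and 3, or 372 ± 23.7 (SD, n = 3 libraries). In pericytes it stood at 44.6, 54.5 and 46.2 CPM (48.4 ± 5.35). The co-receptor Boc (chr16:44485049-44558897, minus strand) was at 44.5, 44.2 and 44.0 CPM in astrocytes and at 3.85, 5.37 and 6.44 CPM in pericytes. Both receptor genes were thus higher in astrocytes in every library, as were 40.7% of all genes compared.

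Cdon (chr9:35421128-35507652, plus strand), the other co-receptor, was nearly unseen, with 18 UMIs in all astrocytes and 7 in all pericytes. That is under the minimum of 30 UMIs set for a ratio, and it was left out of the counts that follow. Hhip (chr8:79965851-80058006, minus strand) was scarce, at 8.88, 7.85 and 8.70 CPM in astrocytes, where 533 of 8757 cells (6.09%) held a UMI. In pericytes 8 UMIs of Hhip were counted in all, giving 0.905, 0.283 and 0.805 CPM.

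The signal transducer Smo (chr6:29735503-29761365, plus strand) was at 67.8, 70.5 and 74.5 CPM in astrocytes and at 44.6, 51.7 and 49.1 CPM in pericytes. Its pericyte level was 65.8 to 73.3% of its astrocyte level. Sufu (chr19:46396896-46488804, plus strand), the inhibitor that binds the Gli proteins, was at 27.6, 29.1 and 31.4 CPM in astrocytes and at 29.2, 29.7 and 29.5 CPM in pericytes. Sufu was the member whose classes overlapped, with a mean log2 ratio of -0.01 ± 0.09 (SD, n = 3).

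Of the members, Gli2 had the widest gap between the classes. Gli2 (chr1:118834132-119053619, minus strand) was at 139, 140.4 and 142 CPM in astrocytes, and 10 UMIs in all were counted in 2260 pericytes, or 0.453, 0.283 and 1.88 CPM. Gli3 (chr13:15463235-15730026, plus strand) was at 532, 521 and 502 CPM in astrocytes and at 33.5, 37.3 and 34.4 CPM in pericytes. Gli1 (chr10:127329882-127341974, minus strand) was at 16.97, 22.1 and 19.0 CPM in astrocytes and at 4.30, 5.09 and 5.90 CPM in pericytes. Glis3 (chr19:28258851-28680077, minus strand) was at 355, 368 and 364 CPM in astrocytes and at 12.9, 11.02 and 15.0 CPM in pericytes. For all 4 factors the lowest astrocyte library lay above the highest pericyte library. The share of all genes separated in this way was not counted.

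**Figure D1:**
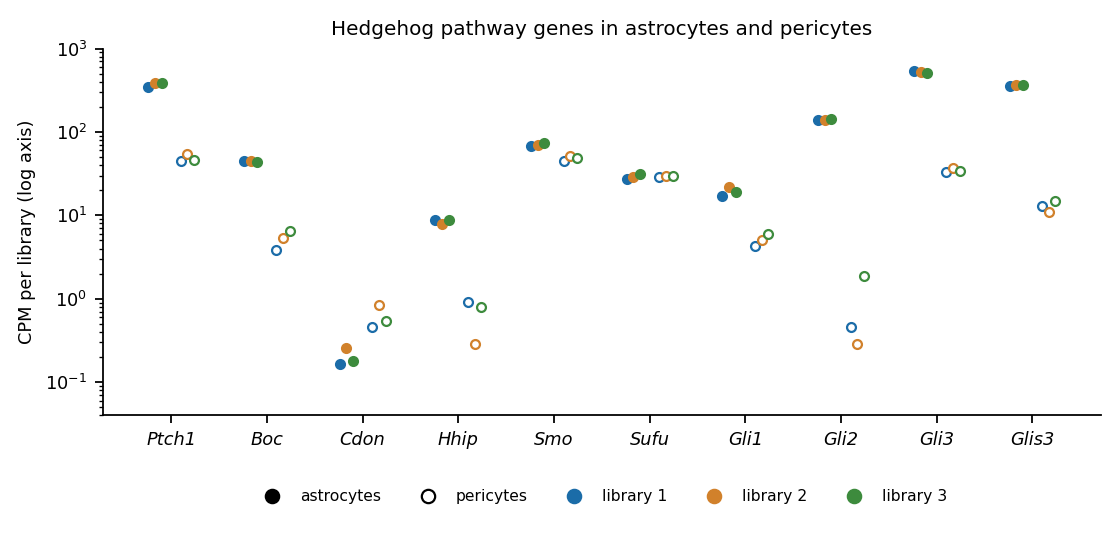
Level of each gene in CPM (log axis) in astrocytes (filled) and pericytes (open), 1 point for each of the 3 libraries. The classes are separate in every library for Ptch1, Boc, Hhip, Smo and the 4 zinc finger factors and overlap for Sufu, and Cdon is below 1 CPM throughout.

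Of the 9 members that reached 30 UMIs, 8 were higher in astrocytes in all 3 libraries, beside 40.7% of the 16553 genes compared, and 7 were at least 2-fold higher, beside 21.5%. None was lower in all 3 libraries or at least 2-fold lower, beside 44.2% and 18% of all genes. The median log2 ratio was 3.08 over the members and -0.03 over all genes. As a measure of astrocyte RNA in the pericyte gate, 4 astrocyte genes (Aqp4, Gja1, Aldoc, Slc4a4) showed in pericytes 0.651 to 1.66% of their astrocyte level. Gli2 was at 0.201 to 1.33% of its astrocyte level, Gli3 at 6.29 to 7.16%, Ptch1 at 11.95 to 14.1% and Gli1 at 23.0 to 31.0%. Per 100 Gli3 UMIs, astrocytes held 26.0 to 28.2 of Gli2 and 64.8 to 76.9 of Ptch1, whereas pericytes held 0.758 to 5.47 and 133 to 146. The part of astrocyte RNA in the pericyte values was not tested.

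The share of cells with a UMI gave the same picture at equal depth. With every cell thinned to 4000 UMIs, which left out 733 shallower astrocytes and 551 pericytes, Gli2 was seen in 38.6% of astrocytes and 0.468% of pericytes. Ptch1 was seen in 68.5% and 16.4%, Smo in 23.9% and 16.5%, and Sufu in 10.4% and 11.1%. Without thinning, the shares for Gli2 were 62.6% and 0.442% and those for Sufu 23.5% and 13.4%.

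Further genes of the pathway were read in the same classes. Transcripts of the ligands Shh, Ihh and Dhh numbered 2, 3 and 0 UMIs in both classes together, so ligand expression was at or under the limit of detection in the sorted cells. Of 11 cilium and transduction genes, 5 were higher in astrocytes and 5 higher in pericytes in all 3 libraries, shares near those over all genes (40.7% and 44.2%). Tulp3, a ciliary trafficking gene, had a log2 ratio of 1.34 and Stk36, a kinase related to fused, of 1.67. Gpr161, a ciliary receptor that restrains the pathway, had -1.47 and Evc, a ciliary partner of Smo, -1.27. Of 9 genes for kinases and degradation of the Gli proteins, 8 were higher in pericytes, beside 44.2% of all genes, with ratios down to -0.96 for Prkacb, a catalytic subunit of protein kinase A.

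Other receptor genes split sharply. Gas1, a co-receptor that promotes ligand binding, was at 49.4 to 50.9 CPM in astrocytes and 0.565 to 6.17 CPM in pericytes. Gpc3, a glypican that competes for ligand, was at 0.360 to 0.479 CPM in astrocytes and 347 to 380.1 CPM in pericytes. Among zinc finger relatives, Zic1 was at 0.258 to 1.33 CPM in astrocytes and 796 to 811 CPM in pericytes, and Zic2 was at 3.09 to 3.83 CPM in astrocytes and 106 to 116 CPM in pericytes.

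Within astrocytes, the 3 classical target genes Hhip, Gli1 and Ptch1 were higher in cells with Agt. The factors Gli2, Gli3 and Glis3 were slightly lower in all 3 libraries, as were 30.3% of all genes compared. The comparison set 3236 astrocytes with at least 3 Agt UMIs (Agt-high) against 2813 with 0 (Agt-0). Agt was part of the choice of these genes, so no test is given. Hhip stood at 17.5, 13.4 and 15.3 CPM in Agt-high cells of libraries 1, 2 and 3 and at 3.99, 3.17 and 2.63 CPM in Agt-0 cells, a mean log2 ratio of 2.23 ± 0.25 (SD, n = 3). Gli1 stood at 26.3, 29.8 and 25.7 CPM against 10.6, 13.1 and 13.8 CPM, a log2 ratio of 1.13 ± 0.21. Ptch1 stood at 463, 485 and 477 CPM against 261, 310 and 312 CPM, a log2 ratio of 0.69 ± 0.11. For all 3 genes the lowest Agt-high library lay above the highest Agt-0 library. The share of all genes separated in this way was not counted, and 23% of genes were higher in Agt-high cells in all 3 libraries.

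Gli2 was at 127, 129 and 125 CPM in Agt-high cells and 152, 171 and 158 CPM in Agt-0 cells, a log2 ratio of -0.34 ± 0.07. Gli3 was at 509, 490.1 and 450.2 CPM against 565, 591 and 573 CPM (-0.26 ± 0.10). Glis3 was at 337, 332 and 334 CPM against 388, 454 and 429 CPM (-0.34 ± 0.13). Each of these was lower in Agt-high cells in every library, by less than 1.5-fold, and 30.3% of all genes were lower in all 3 libraries.

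Smo and Boc were slightly higher in Agt-high cells, with log2 ratios of 0.22 ± 0.07 and 0.21 ± 0.14. Smo was at 73.7, 78.0 and 80.4 CPM against 63.8, 63.3 and 72.0 CPM, and Boc at 50.9, 48.6 and 42.8 CPM against 40.6, 40.6 and 41.3 CPM. Sufu did not move one way, at 28.5, 27.2 and 30.9 CPM against 27.96, 33.4 and 33.7 CPM. Cdon gave 15 UMIs in Agt-0 cells, 3 in cells with 1 or 2 Agt UMIs and 0 of 3236 Agt-high cells, which allows a share of up to 0.0927% of cells with a UMI.

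**Figure D2:**
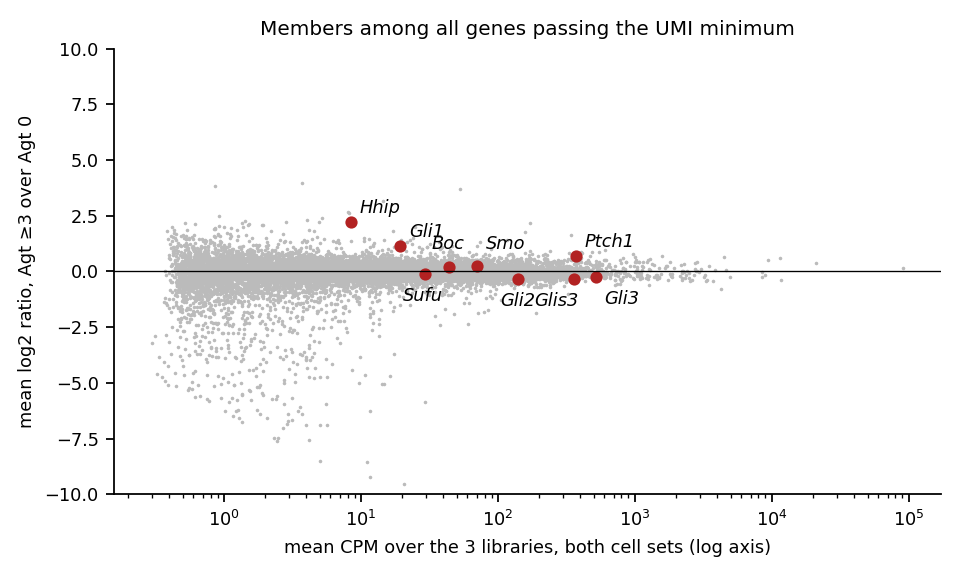
Mean log2 ratio of Agt-high over Agt-0 astrocytes over 3 libraries against mean CPM (log axis), with each of 15193 genes as a grey point and 9 members in red. Hhip, Gli1 and Ptch1 lie above most genes of their level at 2.23, 1.13 and 0.69, and Gli2, Gli3 and Glis3 lie between -0.34 and -0.26.

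Of the 9 members compared, 5 were higher in Agt-high cells in all 3 libraries, beside 23% of the 15193 genes with 30 UMIs, and 3 were lower, beside 30.3%. Hhip, Gli1 and Ptch1 were at least 1.5-fold higher in all 3 libraries, beside 1.51% of all genes. No member was at least 1.5-fold lower, beside 4.25%. The median log2 ratio was 0.21 over the members and -0.02 over all genes. At 8000 UMIs per cell a Hhip UMI was seen in 9.17% of 2387 Agt-high cells and 1.74% of 1611 Agt-0 cells, a Gli1 UMI in 18.1% and 9.06%, and a Ptch1 UMI in 90.8% and 80.1%.

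The target genes rose along the whole range of Agt, not at 1 step. In bins of 0, 1 or 2, 3 to 5, 6 to 9 and at least 10 Agt UMIs, mean Ptch1 was 294, 315, 368, 456 and 744 CPM. Gli1 was 12.5, 15.6, 19.8, 24.8 and 47.3 CPM. Hhip was 3.27, 4.61, 8.03, 15.4 and 32.3 CPM. In the highest bin the 3 libraries spread by an SD of 64.8 CPM for Ptch1, 2.31 for Gli1 and 3.19 for Hhip, and no library of that bin fell to the level of the bin before it. The finer bins were chosen after seeing the data.

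**Figure D3:**
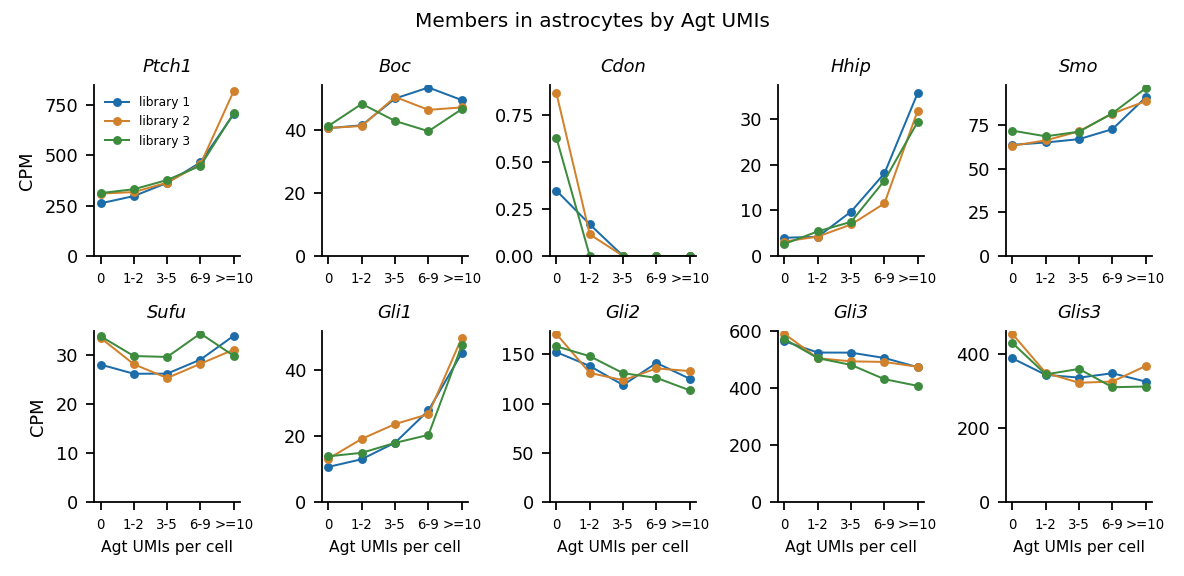
Level of each gene in CPM in astrocytes by Agt UMIs per cell, 1 line for each library. Ptch1, Hhip and Gli1 climb from bin to bin in mean level, to 744, 32.3 and 47.3 CPM at 10 or more Agt UMIs, while Gli2, Gli3 and Glis3 are highest at 0.

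Ptch1 and Hhip, which were higher together in Agt-high cells, are shown with their RefSeq promoter sequence (GRCm38.p6), beside that of Gli2, a factor that was lower there. The 250 bases before the RefSeq start site are printed on the gene's strand. The RefSeq start of Ptch1 lies inside the gene span given above, which begins at an upstream transcript. Capitals mark ACCACCC, the core of the motif that Gli factors bind, or its reverse complement GGGTGGT.
Ptch1, chr13:63565736-63565985, minus strand: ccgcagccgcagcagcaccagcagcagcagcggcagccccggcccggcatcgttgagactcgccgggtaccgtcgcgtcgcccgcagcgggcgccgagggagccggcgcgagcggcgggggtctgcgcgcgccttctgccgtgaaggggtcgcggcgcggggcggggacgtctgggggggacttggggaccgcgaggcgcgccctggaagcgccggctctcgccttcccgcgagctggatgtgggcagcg
Hhip, chr8:80058009-80058258, minus strand: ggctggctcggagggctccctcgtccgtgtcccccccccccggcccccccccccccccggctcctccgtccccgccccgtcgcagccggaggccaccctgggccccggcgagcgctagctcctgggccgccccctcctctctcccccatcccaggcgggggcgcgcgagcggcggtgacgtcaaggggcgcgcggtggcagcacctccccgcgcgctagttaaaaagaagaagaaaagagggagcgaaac
Gli2, chr1:119053620-119053869, minus strand: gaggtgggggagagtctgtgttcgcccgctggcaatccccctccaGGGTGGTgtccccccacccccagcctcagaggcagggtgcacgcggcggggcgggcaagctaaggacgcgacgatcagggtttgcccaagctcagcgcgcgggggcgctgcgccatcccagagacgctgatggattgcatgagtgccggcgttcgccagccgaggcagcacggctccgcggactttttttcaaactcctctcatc
The core was found, on either strand, in 1514 of 32851 promoters of 300 bases (4.61%) and in 1 of the 8 members that matched the table, namely Gli2. The longer motif GACCACCCA, which contains the core, was found in 83 promoters (0.253%) and in no member. The match in Gli2 begins 205 bases before the start site. A match is a description of letters only, and no match says only that these letters are not in the window. The stretch before Ptch1 is 78.4% G and C, that before Hhip 76.0% and that before Gli2 67.2%.

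Other cell content moved with Agt and its part in the result was not tested. Summed CPM of the neural progenitor markers Mki67, Top2a, Sox11 and Dcx was 163 to 245 in Agt-0 cells and 13.7 to 18.9 in Agt-high cells, and all 4 were detected in both. Of Agt-0 cells 16.6% lay outside the study's limits of 100 genes and 6% mitochondrial UMIs, against 0.896% of Agt-high cells. Summed CPM of 5 oligodendrocyte markers was 63.3 to 72.8 in Agt-0 cells and 108 to 116 in Agt-high cells. The 333 astrocytes with progenitor transcripts (a UMI of Mki67, Top2a or Dcx, or at least 2 of Sox11) were left out as an alternative chosen after seeing the data. Hhip was then at 17.6, 13.7 and 15.7 CPM against 4.00, 3.30 and 2.61 CPM, Gli1 at 26.4, 30.3 and 25.0 CPM against 11.1, 13.2 and 14.7 CPM, and Ptch1 at 463, 490.4 and 483 CPM against 270, 318 and 327 CPM. The log2 ratios without these cells were 2.24, 1.06 and 0.66, and those within the study's filter were 2.24, 1.13 and 0.68. Counted by mouse instead of by library, with at least 5 cells of each kind and the looser hashtag calls given further on, 13 mice could be read. Ptch1 was higher in Agt-high cells in 12 of 13 mice (median log2 ratio 0.65), Hhip in 11 (1.73), Gli1 in 10 (0.69) and Gli2 in 1 (-0.52). Among those 11, mouse NoFC 2 held 0 Hhip UMIs, so its ratio came only from the prior of 0.5 UMIs and the total UMIs. Mice NoFC 1 and FR 2 held 1 Hhip UMI each and mouse FR 1 held 2. By the strict calls only 5 mice could be read, and Ptch1 was higher in 3 of them (log2 ratios from -0.31 to 1.30), Hhip in 3 (-1.65 to 4.68), Gli1 in 4 (-0.83 to 2.47) and Gli2 in 1 (-0.55 to 0.41). The lowest Hhip ratio (mouse NoFC 3) and the lowest Gli1 ratio (mouse FR 4) equal those of Cdon, at 0 UMIs in these mice. There the gene had the same UMI count in both sets, so these low ends come from the larger total UMIs of the Agt-high cells. Mouse NoFC 3 held 1 Hhip UMI in all its astrocytes, so the equal counts were 0 and show no lower level. Mouse FR 4 held 4 Gli1 UMIs in all its astrocytes, and equal counts above 0 would be a lower level. Of the 15 Cdon UMIs in Agt-0 cells, 9 came from the 118 of them with progenitor transcripts.

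Pathway genes outside the 10 members were described in the same 2 sets of astrocytes. Of 8 genes often used as Hedgehog targets that reached 30 UMIs, 4 were higher and 3 lower in all 3 libraries, beside 23% and 30.3% of all genes. Nkx6-2, a ventral homeobox gene, was at 105 to 121 CPM in Agt-high and 7.63 to 9.90 CPM in Agt-0 cells. It is counted again among the non-telencephalic astrocyte markers below. Ccnd2 and Mycn, genes of dividing cells, went the other way, with Ccnd2 at 36.7 to 38.5 CPM in Agt-high and 122 to 150.2 CPM in Agt-0 cells. Mycn was at 7.02 to 10.6 CPM in Agt-0 cells and at 0 UMIs in Agt-high cells.

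Of 11 cilium and transduction genes 0 were higher and 6 lower in all 3 libraries, beside 23% and 30.3% of all genes, with median log2 ratio -0.12. Of 9 genes for kinases and degradation of the Gli proteins 0 were higher and 6 lower, with median -0.14. The largest of these ratios in size were -0.62 for Gpr161 and -0.31 for Spop, an adaptor for Gli degradation. Of 4 astrocyte genes known to respond to Hedgehog signalling, all were higher in all 3 libraries, and 1 of them, Slc1a3, is part of the astrocyte gate. Slc1a3 and Aqp4 are also among the 8 general astrocyte markers, of which 5 were higher and 1 was lower in all 3 libraries. Summed CPM of these 8 markers was 19700 to 20222 in Agt-high and 17583 to 18368 in Agt-0 cells. Gria1, a glutamate receptor subunit, was at 309 to 328 CPM against 63.8 to 77.3 CPM, and Kcnj10, the Kir4.1 potassium channel, at 108 to 119 CPM against 70.0 to 79.1 CPM. Among 4 non-telencephalic astrocyte markers, 3 were higher in all 3 libraries and 1, Meis2, was lower. Itih3, among those higher, was at 245 to 276 CPM against 67.0 to 78.7 CPM.

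Members of the target trio were also found together in the same cells. Each astrocyte with at least 8000 UMIs was thinned to that number, which kept 5927 cells, and 298 of them held a Hhip UMI. Ptch1 was at 760, 831 and 786 CPM in cells with Hhip and at 346 CPM over all cells without it. Gli1 was at 48.1, 63.2 and 46.9 CPM in cells with Hhip and at 17.8 CPM over those without. Both were higher with Hhip in all 3 libraries, but the share of all genes higher in this way was not counted. The same held within Agt-0 cells, where 28 cells with Hhip had 625 CPM of Ptch1 against 282. Those cells numbered 15, 8 and 5 in libraries 1, 2 and 3, with Gli1 at 58.3, 78.1 and 50 CPM, which rest on few UMIs. Within Agt-high cells, 219 cells with Hhip had 850.5 CPM of Ptch1 against 435. Smo was at 99.4 CPM with Hhip and 68.2 without. Gli3 was at 497 and 519 CPM, Glis3 at 352 and 356 CPM and Gli2 at 144 and 137 CPM, so these factors were near equal in the cells split by Hhip.

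Split by Gli1, the 777 cells with a UMI held 24.1 CPM of Hhip against 6.80 in the 5150 without, and 574 CPM of Ptch1 against 337. Gli3 was at 505 and 520.2 CPM in these cells. The share of all genes higher with Gli1 was not counted either. Counting error of rare transcripts sets the split, so a cell without a UMI may still carry the transcript.

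**Figure D4:**
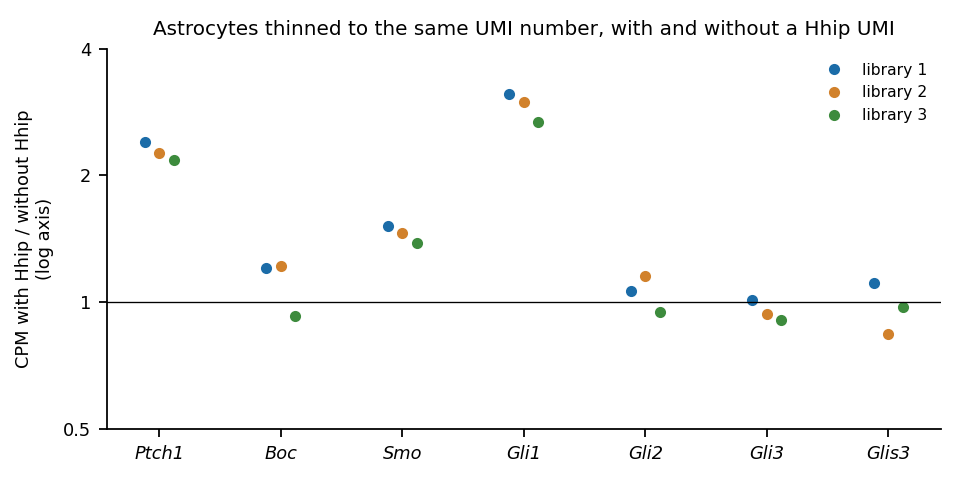
Ratio of each gene's CPM in astrocytes with a Hhip UMI to that in astrocytes without (log axis), thinned to 8000 UMIs, 1 point for each library. Ptch1 and Gli1 lie above 2 in every library, and Gli2, Gli3 and Glis3 lie on both sides of 1.

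Over 9 sums of astrocytes (3 libraries by 0, 1 or 2, and at least 3 Agt UMIs), which share libraries, the genes most like each factor were ranked by Pearson's r of log2(CPM + 1) among 10643 genes, as a description. The sums differ by Agt, which was part of the choice of these genes. The values of r thus reflect in part how each gene moved with Agt and are no separate support. Those most like Gli1 were Cyp2j9, Adcyap1r1 and Kcnj10, with r of 0.985, 0.982 and 0.975, and those most like Ptch1 were Atp2b4, Dab2 and Ttll3, with r of 0.990, 0.989 and 0.982. Ptch1 and Gli1 had r = 0.960 with each other. The genes most like Gli2 were Fam222b, Zfp532 and Hip1 (r of 0.978 to 0.979), those most like Gli3 were 2210408F21Rik, Flywch1 and Strbp (0.971 to 0.983), and those most like Glis3 were Ddx17, Dennd1a and Mdm4 (0.993 to 0.994). Gli2 had r = 0.884 with Gli3 and -0.808 with Gli1.

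No member that could be tested was called between the behavioural groups. Strict hashtag calls (a top hashtag of at least 10 UMIs and at least 3 times the next) assigned 335 astrocytes (3.83%) and 1024 pericytes (45.3%) to a mouse, and counts were summed per mouse and tested with edgeR's quasi-likelihood test. In astrocytes 9 mice had at least 10 cells (2 NoFC, 2 FC, 3 NoFR and 2 FR) and mouse FC 1 gave 159 of the 335 cells. The NoFC mice came from libraries 1 and 2 and both FC mice from library 1. The NoFR mice came from libraries 1 and 3 and the FR mice from libraries 2 and 3. FC and FR mice thus shared no library, and NoFC and FR mice shared only library 2. The CPM given per mouse are not adjusted for library. Gli1, Hhip, Sufu and Cdon fell under the filter on low counts and were not tested in astrocytes. Of the 6 members tested (Gli2, Gli3, Glis3, Ptch1, Smo and Boc) 0 passed an adjusted p of 0.05 in any of 6 comparisons. By edgeR, 1 had an unadjusted p under 0.05. DESeq2 called 0 members.

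That member was Ptch1. It stood at 277 and 264 CPM in the NoFC mice, at 314 and 349 CPM in the FC mice, at 456, 363 and 282 CPM in the NoFR mice and at 507 and 378 CPM in the FR mice. The FR mice lay above the NoFC mice, with a log2 fold change of 0.85 ± 0.38 (SE), an unadjusted p of 0.031 and an adjusted p of 1.00 by edgeR. The share of all genes separated in this way between 2 and 2 mice was not counted. In this comparison 126 of 3070 genes had an unadjusted p under 0.05 by edgeR. For Ptch1 the unadjusted p was 0.071 by DESeq2 and 0.071 by edgeR without the library term. The levels per mouse rested on 25 to 592 Ptch1 UMIs. Agt in the same mice was at 598 and 432 CPM in NoFC and at 375 and 316 CPM in FR. With looser calls (a top hashtag of at least 5 UMIs and at least 2 times the next) all 16 mice had 14 or more astrocytes, Ptch1 was at 265 to 451 CPM in 4 NoFC mice and 302 to 419 CPM in 4 FR mice, and the log2 fold change was 0.04 ± 0.18 (SE). The groups then overlapped.

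Across all 3070 genes tested in astrocytes, the test called 0.0651% of genes in FC over NoFC, 0.0977% in NoFR over NoFC and 0.0326% in FR over NoFC. It called 0% in NoFR over FC, FR over FC and FR over NoFR, where 88, 95 and 140 genes had an unadjusted p under 0.05 and DESeq2 called 0. Single mice weighed heavily: without mouse NoFC 1, Gli2 was called in NoFR over NoFC, at a log2 fold change of -2.47 and an adjusted p of 0.0331 by edgeR. That fit holds 1 NoFC mouse, which is assumed to vary like the mice of the other groups.

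In pericytes, where all 16 mice had at least 36 cells, 4 members (Gli3, Ptch1, Smo and Sufu) could be tested. Of these, 0 were called in any comparison by edgeR. DESeq2 also called 0, but it gave the members no adjusted p in NoFR over NoFC and NoFR over FC. It could therefore call none in those comparisons. By edgeR and by DESeq2, 0 members had an unadjusted p under 0.05. Ptch1 was at 34.6, 42.2, 55.6 and 37.3 CPM in NoFC, at 39.0, 60.7, 51.3 and 60.8 in FC, at 34.7, 58.6, 67.8 and 40.0 in NoFR and at 36.6, 39.9, 49.2 and 39.4 in FR. Smo ranged from 34.4 to 49.3 CPM in NoFC, 23.4 to 49.0 in FC, 27.8 to 74.8 in NoFR and 26.1 to 82.0 in FR. Gli3 ranged from 26.7 to 41.3, 35.7 to 38.5, 30.4 to 43.6 and 21.2 to 57.5 CPM in the same order. Sufu ranged from 25.8 to 37.3, 24.5 to 46.8, 10.7 to 54.6 and 8.86 to 33.3 CPM. All groups overlapped for these 4 genes. The largest log2 fold change in size upward was 0.36 ± 0.36 (SE) for Smo in NoFR over FC, and downward -0.35 ± 0.31 for Ptch1 in FR over NoFR.

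Over the 6543 genes tested in pericytes, 1.07% were called in NoFR over NoFC, 0.443% in NoFR over FC and 0.0917% in FR over NoFR. In FC over NoFC, FR over NoFC and FR over FC 0% were called, with 299, 419 and 315 genes at an unadjusted p under 0.05 and 0 by DESeq2. Of 50 further pathway genes listed, 21 were tested in pericytes and 10 in astrocytes, and 0 passed the test in either direction in any comparison by edgeR, with at most 3 at an unadjusted p under 0.05 in any comparison.

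**Figure D5:**
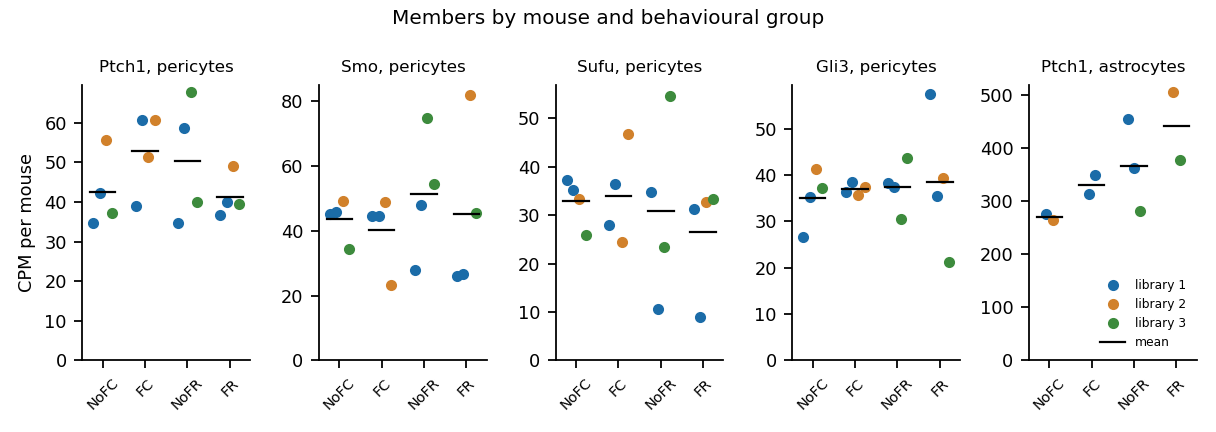
Level in CPM per mouse by behavioural group of Ptch1, Smo, Sufu and Gli3 in pericytes and of Ptch1 in astrocytes, with colours for the library and a bar for the mean. Groups overlap in pericytes, and in astrocytes the 2 FR mice at 378 and 507 CPM lie above the 2 NoFC mice. The share of all genes separated in this way was not counted. With the looser hashtag calls, which are not drawn, the FR and NoFC groups overlap in astrocytes too.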

How the data were processed

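Counts of unique molecular identifiers per gene and barcode were deposited for 3 pooled libraries, each with hashtag counts, and a table naming the mouse and group of each hashtag. The authors' notes name Cell Ranger 3.0, the matrix headers name 7.0.0, and the reference was mm10 with GENCODE vM23. Whether reads in introns were counted is not stated. Positions come from GENCODE vM21 on the same build. The members, gene lists and tests were chosen with earlier results of these data known.

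All barcodes were used. Counts were summed per library over each gate and divided by total UMIs (CPM). Ratios used a prior of 0.5 UMIs and genes with at least 30 UMIs. All values are from counts as deposited. Libraries are pools of different mice. SDs are over libraries and SEs are from the edgeR fits over mice. The limit given for Cdon covers counting error only. Mouse sums with at least 10 cells were tested with edgeR 4.0.16 (TMM, filterByExpr, library as a covariate, all groups in 1 fit, Benjamini-Hochberg over all genes), with DESeq2 1.42.0 as an alternative. The procedure was tested on simulated data. scanpy 1.11.5 marked 72 of 13546 barcodes as doublets by Scrublet, 3 of them astrocytes, which were kept. Each of the 10 members was named, and of each list up to 4 genes with the largest ratios. Gli1 overlaps Arhgap9 and Gm47200, Gli3 overlaps Gm6556 and Glis3 overlaps D930032P07Rik, all on the opposite strand. Glis3 also overlaps 4933413C19Rik on the same strand. The sources do not state whether reads were counted by strand, so the counts of these members are uncertain to that extent.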

Additional observations from a re-analysis of the deposited data

Results flagged for a closer look

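Sufu in the pericytes of mouse FR 2 was at 8.86 CPM, on 2 UMIs in 45 cells. The other FR mice were at 31.4, 32.8 and 33.3 CPM, on 6, 10 and 11 UMIs. The gap to the nearest mouse took up more of the range of the group than Dixon's critical value for groups of that size. Of 16 groups of 4 mice tested, 1 was picked out, and chance picks out about 1 in 20. With the looser hashtag calls mouse FR 2 was at 20.4 CPM, on 6 UMIs. Mice FR 1, FR 3 and FR 4 were then at 25.2, 31.8 and 28.6 CPM.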

How the results depend on the processing

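Of 210 log2 ratios of members recomputed under other settings, 204 kept their direction. The total includes Cdon, which was under 30 UMIs. It also includes the omission of each library, which cannot turn a mean ratio whose sign is the same in all 3 libraries. Over 14 settings the Agt ratio ran from 1.04 to 2.71 for Hhip, 0.75 to 1.47 for Gli1, 0.46 to 0.90 for Ptch1 and -0.66 to -0.03 for Gli2. With the 5 strictly called mice that had 5 cells of each kind as units, the Agt ratio was 0.0069 for Gli3, 0.038 for Glis3 and 0.55 for Sufu. It was -0.13 for Boc with 13 mice by looser calls, and 0.22 for Sufu with Itih3 in place of Agt. Sufu in astrocytes over pericytes ran from -0.062 to 0.023 over the omission of each library, turning sign without library 1. The number of members higher in Agt-high cells in every unit was 0 with mice as units, by strict or looser calls, against 5 with libraries. With mice, more units must all be higher. By strict calls the Ptch1 ratio was -0.31 in mouse NoFC 3 and -0.26 in mouse FR 4. The cause of the difference between mice and libraries was not tested. Ptch1 in astrocytes, FC over NoFC, ran from -0.10 to 0.31 over the omission of each mouse, turning sign without mouse NoFC 1. No paired analysis was possible because the numbers 1 to 3 in the labels join the gene and hashtag library of 1 pool and mouse numbers do not pair mice of different groups. For the counts of called genes the cause of each change was not tested. In astrocytes DESeq2 called 1 gene in FC over NoFC, and 0 in NoFR over NoFC and FR over NoFC. Without the library term 1 was called in FC over NoFC and in NoFR over NoFC, and with looser hashtag calls 0 in all 3. With no filter on low counts 2 were called in FR over NoFC and NoFR over FC. The study's filter on genes and mitochondria gave 9 in NoFR over FC, 32 in FR over FC and 52 in FR over NoFR. Leaving out each mouse gave 1 to 108 genes in FC over NoFC, 1 to 181 in NoFR over NoFC, 1 to 33 in FR over NoFC, 0 to 8 in NoFR over FC, 0 to 29 in FR over FC and 0 to 53 in FR over NoFR, and 0 to 1 members in NoFR over NoFC. The widest swing came without mouse NoFC 1, which gave 108 and 181. In astrocytes, leaving out a NoFC, FC or FR mouse left 1 mouse in its group, assumed to vary like those of the other groups. In pericytes no filter gave 8 in FC over NoFC, 10 in FR over NoFC, 55 in NoFR over FC, 2 in FR over FC and 17 in FR over NoFR. No library term gave 45 in NoFR over FC and 10 in FR over NoFR, and looser calls 45, 10 and, in FR over NoFC, 2. Leaving out each mouse gave 0 to 1, 25 to 77, 0 to 4, 14 to 40, 0 to 3 and 3 to 13 genes in FC over NoFC, NoFR over NoFC, FR over NoFC, NoFR over FC, FR over FC and FR over NoFR. The alternative of at least 30 cells per mouse was not run in astrocytes, since too few mice have them. The few astrocytes with a hashtag call limit what the group comparisons could show.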

Other observations

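Regional markers of astrocytes were read in the same Agt-high and Agt-0 cells. Of 5 telencephalic markers, 4 were lower and 1 was higher in Agt-high cells in all 3 libraries, beside 30.3% and 23% of all genes. Lmo1, a nuclear adaptor, was at 35.3 to 39.1 CPM in Agt-high and 51.1 to 60.4 CPM in Agt-0 cells, and Lhx2, a forebrain homeobox gene, was at 121 to 153 CPM against 165 to 174 CPM. Mfge8, a secreted glycoprotein, went the other way, at 1215 to 1367 CPM against 922 to 1017 CPM. Of 4 non-telencephalic markers other than Agt itself that reached 30 UMIs, 3 were higher and 1 was lower, with Slc6a11, a GABA transporter, at 680.2 to 739 CPM against 386 to 395 CPM and Meis2 at 243 to 258 CPM against 309 to 339 CPM.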
